A study of Saccharomyces cerevisiae with 24 samples.

Results

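The last stretch of a hypoxic time course was described here, from 120 to 240 min after baker's yeast was moved from air to nitrogen. The comparison set the 3 libraries taken at 240 min against the 3 taken at 120 min, matched by the replicate number of the labels. The levels compared thus came from 6 of the 24 libraries of the series, but standard errors and p values came from a fit of all 24. The 3 libraries of 180 min were used as the point between. All libraries came from 1 strain, yMH914, an S288C derivative of mating type MATa with a repaired HAP1 gene and the alleles ura3D0, his3D200 and leu2D0 together with lys2-128d. It was grown in rich glucose medium with no ergosterol or unsaturated fatty acid supplied. Flasks were flushed with nitrogen gas for 120, 180 or 240 min, and the series also holds 0 min (air), 5, 10, 30 and 60 min. Each replicate is a whole time course with 1 library at each time, called a course below. Cultures were diluted after the 0 min sample so as to reach mid-log at collection, so the time in nitrogen and the dilution and growth that went with it cannot be told apart. RNA came from whole cultures, and a change in the RNA of each cell cannot be told apart from a change in the share of cells that carry it.

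Yeast needs molecular oxygen to make heme, ergosterol and unsaturated fatty acids. When these run low, the transcription factor Upc2 turns on sterol import and the DAN/TIR genes, which encode mannoproteins that replace the aerobic mannoproteins Cwp1 and Cwp2 in the cell wall. Respiratory genes that are driven by heme through Hap1 and the Hap2-3-4-5 complex lose that drive, and hypoxic genes held down by the repressor Rox1 are released.

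The deposited values were read counts per gene, totalling 6633901 to 13690628 per library at 120 min, 4980240 to 14301085 at 180 min and 7073020 to 14396237 at 240 min. Levels are given as CPM, the reads of a gene relative to the total of its library after scaling between libraries. Of 7140 features, 6262 had enough reads to be tested. Courses 2 and 3 differed by more than counting noise at each of the late times, where the chi-square over its degrees of freedom was 21.9 to 24.5, and course 1 stood further from both, at 168 to 321. No library had more than 2 counts of a deleted marker gene (HIS3, LEU2 or URA3), and HAP1 had 488 to 4444. The a-cell receptor gene STE2 had 4321 or more, and the alpha-factor gene MF(ALPHA)1 had at most 5. Other alpha-cell genes did have reads, with up to 93 for MF(ALPHA)2, 31 to 206 for STE3 and 80 to 504 for SAG1. The a-cell genes with the fewest reads were ASG7, with 8 to 203, and MFA1, with 25 to 426. Nothing says which steps the courses shared, so p values measure the spread between these samples.

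Between 120 and 240 min, 26 genes rose and 38 fell at least 2-fold at an adjusted p under 0.05 in edgeR's quasi-likelihood test with the course as a block, which is 0.415% and 0.607% of the genes tested (1.02% together). The genes that rose included 4 of the 6 DAN/TIR genes, the sterol importers AUS1 and PDR11 and the sphingoid base phosphatase gene YSR3. Those that fell included CWP1 and CWP2, the ceramidase gene YPC1, the glucose transporter genes HXT4 and HXT7, the cytochrome c gene CYC7 and 3 genes of the phosphate regulon. The median log2 change over all genes was 0.004, and 905 of 6262 genes had an unadjusted p under 0.05. Groups did not overlap in 25 of the 26 higher genes and 36 of the 38 lower genes, the exceptions being FHN1, MTC7 and SFK1, against 366 (5.84%) and 308 (4.92%) of all genes in these directions and 674 (10.8%) in either. At an adjusted p under 0.05 with no fold minimum, 76 genes were higher (1.21%) and 70 lower (1.12%), 146 in all (2.33%). All 64 moved the same way in each of the 3 courses. The calls came from these same libraries, so this agreement and the separate groups are favoured by the choice of genes. No share over all genes is given here for the agreement between courses. Without the block the test called 10 genes higher (0.16%) and 9 lower (0.144%), all of which were among the 64. Leaving out course 2 kept 9 of the 26 and 14 of the 38, leaving out course 3 kept 17 and 16, and leaving out course 1 kept 22 and 32. Those kept in each of these 3 fits were AMS1, AUS1, DAN4, GSC2, PAU23, PBI1, TIR3, TIR4 and YSR3 among the higher genes, and CCW22, CWP2, HXT4, MTH1, NCE102, SPL2, YDR133C and ZEO1 among the lower. Every other called gene lost its call in at least 1 of them.

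**Figure D1:**
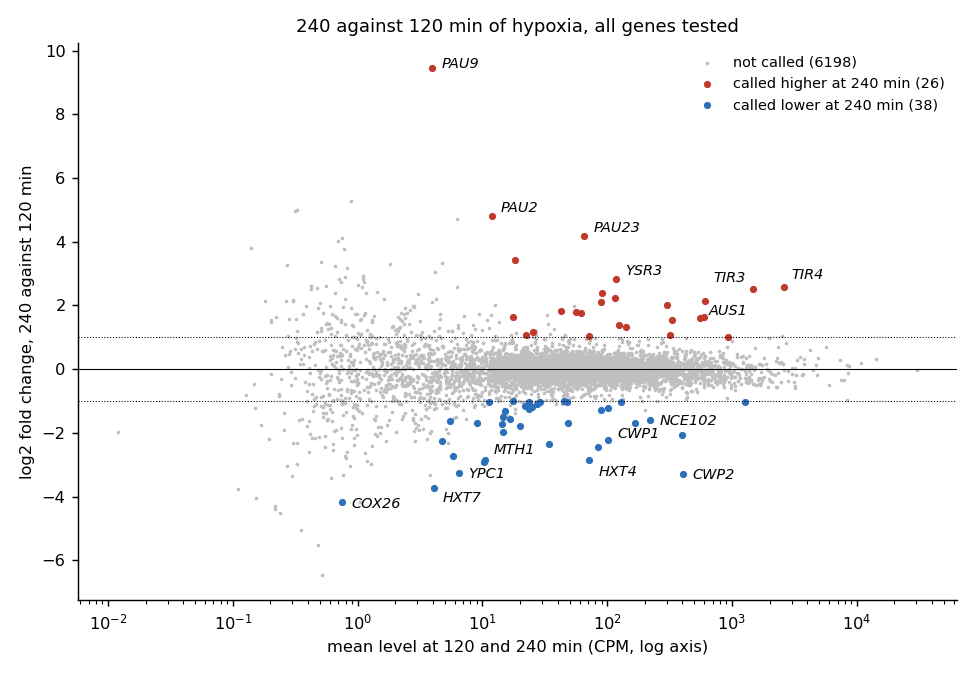
Change from 120 to 240 min for each gene tested. The horizontal axis is the mean level at both times in CPM on a log axis and the vertical axis is the fitted log2 fold change, with dotted lines at 2-fold. Red points are the 26 genes called higher and blue points the 38 called lower, and grey points with large changes lie mostly at levels below 10 CPM.

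The clearest group was the DAN/TIR mannoproteins, whose median log2 change was 1.92 against 0.004 over all genes. The upstream sequences of TIR4, TIR3 and DAN4 are shown because these were the 3 members with the largest changes. Each run is 300 bases that end 100 bases before the start codon, read 5′ to 3′ on the gene's strand from the R64 genome of RefSeq (TIR4 at chrXV:343935-344234 on the plus strand, TIR3 at chrIX:333327-333626 plus, DAN4 at chrX:715841-716140 minus). Capitals mark matches, on either strand, to TCGTATA (Upc2), TCGTTNAG (the AR1 type of element known from DAN1), ATTGTTC (Rox1), AGGGG (Msn2 and Msn4) or CACGTG (Pho4).
TIR4: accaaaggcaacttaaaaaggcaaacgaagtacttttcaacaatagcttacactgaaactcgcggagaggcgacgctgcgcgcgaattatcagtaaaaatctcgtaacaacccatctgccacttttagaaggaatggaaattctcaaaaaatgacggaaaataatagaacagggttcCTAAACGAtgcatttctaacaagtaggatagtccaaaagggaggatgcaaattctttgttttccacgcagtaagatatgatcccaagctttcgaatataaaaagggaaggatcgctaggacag
TIR3: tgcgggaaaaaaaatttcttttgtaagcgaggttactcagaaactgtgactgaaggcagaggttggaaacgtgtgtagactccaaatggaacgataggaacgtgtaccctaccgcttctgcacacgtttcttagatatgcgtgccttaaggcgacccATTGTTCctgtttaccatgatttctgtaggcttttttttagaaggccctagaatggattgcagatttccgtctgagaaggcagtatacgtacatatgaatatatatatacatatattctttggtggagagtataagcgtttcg
DAN4: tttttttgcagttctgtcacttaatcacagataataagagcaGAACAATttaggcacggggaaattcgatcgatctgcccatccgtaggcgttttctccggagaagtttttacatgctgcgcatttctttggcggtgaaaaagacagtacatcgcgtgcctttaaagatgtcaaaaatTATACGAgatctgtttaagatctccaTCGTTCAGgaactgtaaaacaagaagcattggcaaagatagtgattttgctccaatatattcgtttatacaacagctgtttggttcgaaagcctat
DAN4 held a TCGTATA match beginning 222 bases before the start codon and a TCGTTNAG match at 196 bases, and TIR4 a TCGTTNAG match at 223 bases. In TIR3 the TCGTATA match lay at 421 bases, outside the run shown, and an ATTGTTC match at 243 bases. These are matches of letters and not measured binding.

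TIR4 stood at 357, 1264 and 679 CPM at 120 min in courses 1, 2 and 3, at 1619.7, 2187 and 2140.2 CPM at 180 min, and at 2890.4, 5799.8 and 4634 CPM at 240 min. The groups did not overlap, and the fitted log2 change was 2.59 ± 0.28 (SE, n = 3 courses, adjusted p = 4e-06). TIR3 went from 274, 652 and 384 CPM to 1709, 3176 and 2585 CPM, a log2 change of 2.52 ± 0.30 (adjusted p = 1.7e-05). Both genes rose in every course at each step, and their mean levels at 60 min had been 33.0 CPM (TIR4) and 60.1 CPM (TIR3).

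DAN4, a longer member of the family, stood at 69.3, 172 and 122 CPM at 120 min and at 313, 673 and 468 CPM at 240 min. This was a log2 change of 2.02 ± 0.29 with groups that did not overlap (adjusted p = 0.00022). TIR2 was much lower, at 24.1, 16.7 and 15.6 CPM and then 52.3, 80.4 and 64.99 CPM, and rose by 1.82 ± 0.27 (adjusted p = 0.00022). The other two members did not pass the test. TIR1 had the highest level of the family at 120 min, 3277, 5786 and 3965 CPM, and reached 6357, 7380.0 and 7208 CPM, a log2 change of 0.70 ± 0.27 (adjusted p = 0.23). DAN1 went from 772, 2371 and 1886 CPM to 1921, 3625 and 4408 CPM, a log2 change of 1.05 ± 0.45 (adjusted p = 0.29), with groups that overlapped because course 1 was low at both times.

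**Figure D2:**
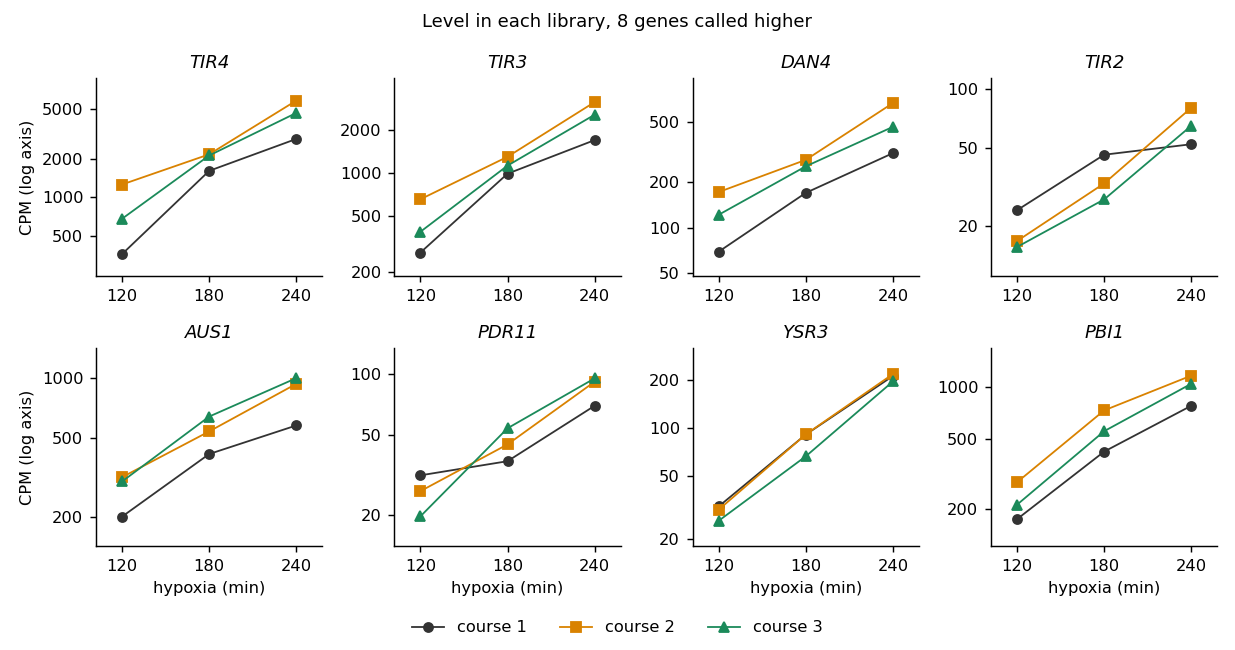
Level of 8 genes called higher, in each library at 120, 180 and 240 min. Each line is 1 course and the vertical axes are CPM on log axes with a range of their own. In these 8 genes the 180 min value lay between the other two in all 3 courses.

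CWP2, which encodes a major mannoprotein of the aerobic wall, showed the smallest adjusted p of all genes. Its level was 868, 640 and 698 CPM at 120 min, 292, 239 and 253 CPM at 180 min and 88.0, 82.3 and 54.8 CPM at 240 min. The 3 times were fully separated, and the log2 change from 120 to 240 min was -3.29 ± 0.23 (adjusted p = 1e-08), a mean 9.80-fold fall. The mean at 0 min had been 2321 CPM. CWP1, 1600 bases downstream of CWP2 on the same strand of chromosome XI, fell from 92.3, 169 and 244 CPM to 30.1, 33.2 and 40.4 CPM, a log2 change of -2.21 ± 0.47 (adjusted p = 0.0099). CWP1 had been higher at 30 min, with a mean of 1636 CPM, than in air, with a mean of 85.4 CPM.

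Of the other 21 mannoprotein genes tested, only CWP1 and CWP2 were called and the median log2 change was -0.03. CCW12, which encodes the most abundant transcript of the list, went from 9358, 12256.9 and 11104.1 CPM to 5859, 5169 and 5941 CPM, a log2 change of -0.95 ± 0.22 (adjusted p = 0.019) that stayed under 2-fold. Its near copy CCW22, annotated as a pseudogene, fell from 183, 121 and 126 CPM to 32.2, 29.1 and 17.6 CPM (log2 -2.44 ± 0.30, adjusted p = 3e-05). Reads that the copies share would not have been counted to either. YDR133C, a feature with no entry in the RefSeq annotation used here, fell by 2.73 on the log2 scale (adjusted p = 0.001). Its systematic name places it beside YDR134C, which is CCW22, on the same strand, and with no coordinates for YDR133C here, whether the features overlap was not tested.

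Per kilobase of coding length, the order of the 27 wall mannoprotein genes changed. CCW12 ranked first at both times, at 27130.3 CPM per kb and 14070.0 CPM per kb, and TIR1 second, at 5677 and 9126 CPM per kb. CWP2 went from rank 4, at 2636 CPM per kb, to rank 15, at 269 CPM per kb. TIR3 went from rank 12, at 539 CPM per kb, to rank 4, at 3074 CPM per kb, and TIR4 from rank 13 to rank 5. These are means over 3 libraries, and ranks that lie next to each other were not tested.

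Other genes of the wall, protein mannosylation, the plasma membrane and the vacuole moved too. GSC2, which encodes an alternative catalytic subunit of glucan synthase, went from 179.6, 369 and 327 CPM to 605, 1107 and 1004 CPM, with a log2 change of 1.65 ± 0.20 (adjusted p = 2.8e-05), and was the only 1 of 21 genes for glucan and chitin enzymes that was called. PMT3, a protein O-mannosyltransferase gene, rose by 1.08 ± 0.21 (adjusted p = 0.0053), and AMS1, which encodes the vacuolar alpha-mannosidase, rose from 32.6, 37.1 and 50.2 CPM to 126, 237 and 207 CPM (log2 2.24 ± 0.29, adjusted p = 4.8e-05). WSC4, of the WSC family of stress sensors, fell by 1.03 on the log2 scale (adjusted p = 0.012). ZEO1, which encodes a plasma membrane protein of the cell integrity pathway, fell from 1292, 296 and 364 CPM to 281, 66.9 and 97.0 CPM (log2 -2.06 ± 0.26, adjusted p = 3e-05).

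The sterol import genes were next. In all, 3 of 17 genes for sterol uptake, transfer and esters rose and none fell, and their median log2 change was 0.26. AUS1, which encodes an ABC transporter that takes up sterol when it cannot be made, stood at 201, 317 and 301 CPM at 120 min, 414, 537 and 638 CPM at 180 min and 576, 930.2 and 994 CPM at 240 min. The log2 change was 1.60 ± 0.16 (adjusted p = 1.5e-06) and the call held in each of the 11 alternative fits. Its partner PDR11 went from 31.6, 26.3 and 19.8 CPM to 69.8, 91.9 and 95.4 CPM (log2 1.79 ± 0.28, adjusted p = 0.00063). HES1, an oxysterol-binding protein gene, reached 2-fold by a small margin (log2 1.00 ± 0.26, adjusted p = 0.039). UPC2 itself had a log2 change of 0.85 ± 0.17 (adjusted p = 0.007), under 2-fold.

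Several of these genes are neighbours. TIR4 and TIR2 lie end to end on chromosome XV with 396 bases between them, and 2728 bases separate the start codon of TIR2 from that of AUS1, which points the other way. On chromosome IX, the start codons of TIR3 and PDR11 lie 1284 bases apart and the genes point away from each other. All 5 of these genes rose.

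The genes of ergosterol synthesis had smaller changes, apart from ERG5. Of its 25 genes, 20 had a log2 change above 0, with a median of 0.24, and 5 of them had an adjusted p under 0.05 without reaching 2-fold (ERG9, ERG20, ERG26, ERG27 and MVD1, with 0.55 to 0.87 on the log2 scale). ERG5, which encodes a cytochrome P450 sterol desaturase, had 21.0, 21.5 and 30.0 CPM at 120 min and 5.36, 17.4 and 3.54 CPM at 240 min (log2 -1.57 ± 0.36, adjusted p = 0.018). Course 2 stood above the others at 240 min, and the mean in air had been 174 CPM.

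Sphingolipid genes went both ways, 1 higher and 2 lower of 26, with a median of -0.02. YSR3, which encodes a phosphatase of phosphorylated sphingoid bases, stood at 32.1, 30.6 and 26.1 CPM at 120 min and at 211, 217 and 195 CPM at 240 min, a log2 change of 2.84 ± 0.40 (adjusted p = 0.00017) with closely placed replicates. YPC1, an alkaline ceramidase gene, went from 6.31, 10.5 and 18.7 CPM to 1.07, 1.83 and 0.954 CPM (log2 -3.24 ± 0.56, adjusted p = 0.0014), which at 240 min rested on 9, 13 and 14 reads. SCS7, whose product hydroxylates the fatty acid of ceramide and uses oxygen, fell from 109, 143 and 175 CPM to 56.1, 66.2 and 58.5 CPM (log2 -1.21 ± 0.18, adjusted p = 0.00022). SUR2, the gene of the other hydroxylase of the pathway, had -0.79 ± 0.16 (adjusted p = 0.007).

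NCE102 encodes a membrane protein of the eisosomes, the furrow-like domains of the yeast plasma membrane, and FHN1 is its paralog. NCE102 stood at 314, 313 and 367 CPM at 120 min and at 105, 105 and 122 CPM at 240 min (log2 -1.59 ± 0.18, adjusted p = 1.2e-05). FHN1 went from 361, 94.2 and 70.8 CPM to 933, 274 and 243 CPM (log2 1.54 ± 0.25, adjusted p = 0.00086), and its groups overlapped because course 1 stood above the other courses at both times. In each course the paralogs moved in opposite directions. SUR7, another eisosome gene, had a log2 change of -0.85 ± 0.14 (adjusted p = 0.00096).

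Among other lipid genes, RTA1, of a family of lipid-translocating exporters, rose from 8.68, 3.31 and 1.02 CPM to 48.0, 29.2 and 19.6 CPM (log2 3.44 ± 0.71, adjusted p = 0.0078). INO1, which encodes inositol-3-phosphate synthase, rose by 1.15 ± 0.30 (adjusted p = 0.039) and was the only gene called of 20 for phospholipids and inositol, of which 17 had a change above 0, CKI1 and OPI3 with 0.75 and 0.95 at adjusted p of 0.0034 and 0.026. The fatty acid elongase gene ELO1 fell by 1.03 on the log2 scale (adjusted p = 0.014), the only gene called of 16 for fatty acids, while the fatty acid synthase gene FAS2 had 0.82 ± 0.19 (adjusted p = 0.014). The desaturase gene OLE1 had 0.29 ± 0.40 (adjusted p = 0.83). PDR16, a phosphatidylinositol transfer protein gene, fell by 1.09 (adjusted p = 0.0067), and UPS3, of a family of mitochondrial lipid transfer proteins, fell by 2.25 (adjusted p = 0.0033).

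**Figure D3:**
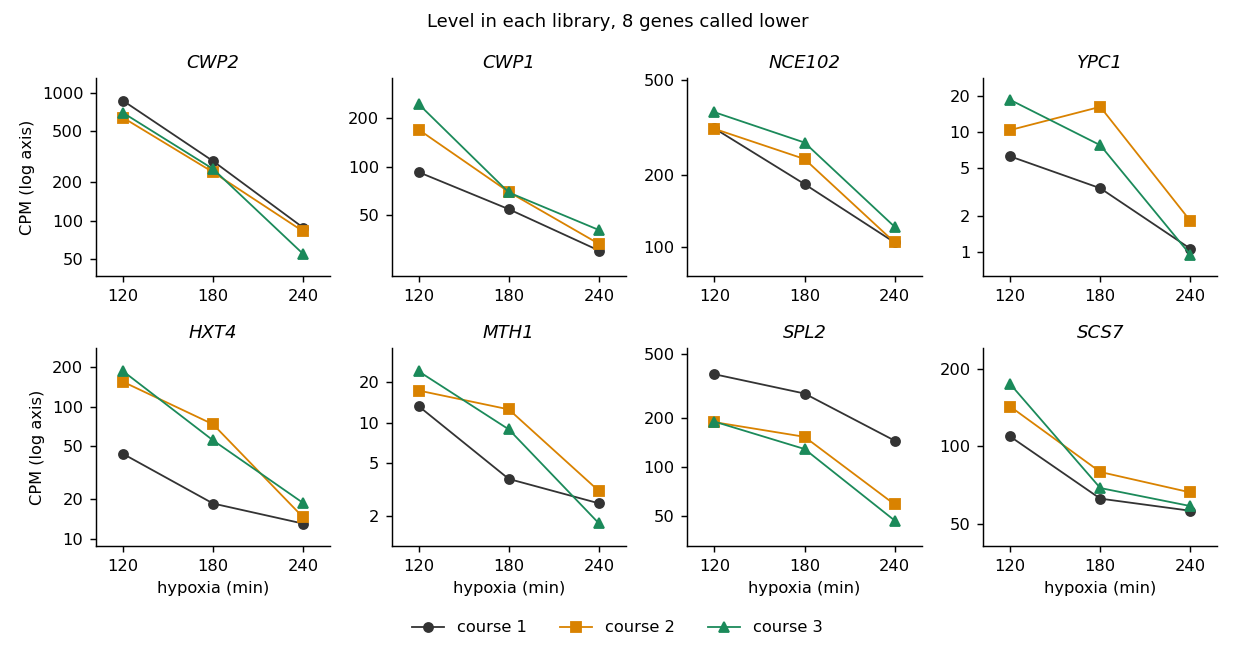
Level of 8 genes called lower, in each library at 120, 180 and 240 min, plotted with 1 line per course and CPM on log axes. The 240 min values lie below the 120 min values in every course. In YPC1, course 2 stood higher at 180 min than at 120 min.

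Among the glucose transporter genes, HXT7 and HXT4, which encode high-affinity carriers, fell. The HXT7 sequence is shown because the gene had the second largest fall and its run holds AGGGG matches, and it lies at chrIV:1156029-1156328 on the minus strand, with the same capitals as above.
HXT7: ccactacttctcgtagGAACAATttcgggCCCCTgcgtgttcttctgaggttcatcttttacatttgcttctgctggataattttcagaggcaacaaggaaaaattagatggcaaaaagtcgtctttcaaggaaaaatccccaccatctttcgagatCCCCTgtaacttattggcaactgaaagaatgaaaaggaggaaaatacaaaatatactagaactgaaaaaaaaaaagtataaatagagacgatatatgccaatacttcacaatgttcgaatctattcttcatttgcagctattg
HXT7 went from 5.65, 6.72 and 10.2 CPM to 0, 0.983 and 0.818 CPM, that is from 43, 63 and 140 reads to 0, 7 and 12 (log2 -3.73 ± 0.76, adjusted p = 0.007). Its near copy HXT6 had a log2 change of -1.94 ± 0.80 (adjusted p = 0.26), and since reads that map to both were not counted, the pair is known less well. HXT4, with more reads, fell from 43.9, 155 and 186 CPM to 12.98, 14.5 and 18.6 CPM (log2 -2.84 ± 0.36, adjusted p = 3.7e-05). These were the 2 genes called of 16 in the transporter list, whose median was 0.17. HXT1, the low-affinity carrier, had 0.98 ± 0.25 (adjusted p = 0.037), just short of 2-fold. MTH1, which encodes a repressor of HXT genes that acts when glucose is low, fell from 13.3, 17.4 and 24.2 CPM to 2.50, 3.09 and 1.77 CPM (log2 -2.90 ± 0.46, adjusted p = 0.00063), and that call held in each of the 11 alternatives.

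The phosphate regulon, driven by Pho4, had 3 of 20 genes lower and none higher, and 19 of the 20 had a change below 0 with a median of -0.58. SPL2 is shown because it had the smallest adjusted p of the list and its upstream run, at chrVIII:375201-375500 on the minus strand, holds CACGTG matches beginning 361 and 147 bases before the start codon.
SPL2: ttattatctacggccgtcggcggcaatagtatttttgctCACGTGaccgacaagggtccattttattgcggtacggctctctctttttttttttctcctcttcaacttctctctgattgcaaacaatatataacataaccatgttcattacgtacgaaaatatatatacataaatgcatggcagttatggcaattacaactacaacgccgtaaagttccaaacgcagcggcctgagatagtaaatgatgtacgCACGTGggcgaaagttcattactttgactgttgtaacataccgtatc
SPL2, which encodes a regulator of low-affinity phosphate transport, stood at 375, 189.8 and 191 CPM at 120 min and at 146, 58.9 and 46.8 CPM at 240 min (log2 -1.68 ± 0.21, adjusted p = 3e-05). Course 1 was above the others at both times, and its 240 min value lay below all 120 min values.

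PHO5, the secreted acid phosphatase gene, went from 66.9, 154 and 172 CPM to 45.6, 51.7 and 46.7 CPM (log2 -1.29 ± 0.34, adjusted p = 0.049). PHM6, a phosphate-regulated gene, went from 63.0, 14.1 and 16.8 CPM to 13.7, 8.99 and 3.27 CPM (log2 -1.78 ± 0.35, adjusted p = 0.0051). VTC1, VTC3, VTC4 and PHO8 had an adjusted p under 0.05 with log2 changes of -0.55 to -0.99. The VTC genes encode the vacuolar polyphosphate polymerase, and PHO8 a vacuolar phosphatase. The high-affinity carrier PHO84 had -0.55 ± 0.20 (adjusted p = 0.18).

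The respiratory chain list had 1 of 25 genes lower, QCR7 of the cytochrome bc1 complex (log2 -1.04 ± 0.26, adjusted p = 0.03), and a median of -0.43. The median was -0.02, -0.37 and -0.86 in courses 1, 2 and 3, and -0.68, -0.54 and -0.27 with each of them left out, so course 1 showed almost no shift. COX26, which encodes a small protein bound to cytochrome oxidase, had the largest fitted fall but rested on 3, 17 and 28 reads at 120 min and 0, 2 and 0 reads at 240 min (log2 -4.18 ± 1.10, adjusted p = 0.044). With the 120 and 240 min libraries alone COX26 had too few reads to be tested. Its mean was 28.9 CPM at 5 min and 1.41 CPM at 120 min. CYC7, the second cytochrome c gene, had 3.68, 23.5 and 28.2 CPM at 120 min and 2.50, 2.95 and 1.91 CPM at 240 min (log2 -2.85 ± 0.71, adjusted p = 0.032). Its course 1 value at 120 min was close to the 240 min values, and the mean over courses was 36.6 CPM at 30 min. CYC7 was the only gene called of 14 hypoxic isoforms and classic anaerobic genes. HYP2, which encodes the aerobic form of the translation factor eIF5A, fell from 1434, 1697 and 2026 CPM to 828, 914 and 756 CPM (log2 -1.03 ± 0.13, adjusted p = 2.8e-05), while ANB1, its hypoxic form, had 0.22 ± 0.37 (adjusted p = 0.87).

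Some single genes of other pathways rose. HUG1, which encodes an inhibitor of ribonucleotide reductase, went from 42.9, 35.1 and 24.9 CPM to 166, 141 and 128 CPM (log2 2.10 ± 0.33, adjusted p = 0.00063) and was the only gene called of 15 for DNA damage and dNTPs. TSA2, a peroxiredoxin gene, rose by 1.40 ± 0.30 (adjusted p = 0.0089), 1 of 23 antioxidant genes. SNZ1, of vitamin B6 synthesis, rose by 1.77 ± 0.34 (adjusted p = 0.0045), 1 of 25 genes for B vitamins and NAD, with 179.7, 66.9 and 46.6 CPM at 240 min. PBI1 went from 175, 284 and 211 CPM to 777, 1155 and 1038 CPM (log2 2.15 ± 0.17, adjusted p = 5.4e-08), the smallest adjusted p among the genes that rose, and its mean at 60 min was 22.8 CPM. SRO77, an exocytosis gene, rose by 1.33 ± 0.21 (adjusted p = 0.00063), and YPR145C-A by 2.40 ± 0.41 (adjusted p = 0.0014).

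The PAU genes, subtelomeric relatives of the DAN/TIR genes, are so alike that few reads can be assigned to 1 copy, and 9 of 24 had enough reads to be tested. The clearest of them, PAU23, is shown at chrXII:223160-223459 on the minus strand because its run holds a TCGTATA match at 271 bases and an AGGGG match at 197 bases.
PAU23: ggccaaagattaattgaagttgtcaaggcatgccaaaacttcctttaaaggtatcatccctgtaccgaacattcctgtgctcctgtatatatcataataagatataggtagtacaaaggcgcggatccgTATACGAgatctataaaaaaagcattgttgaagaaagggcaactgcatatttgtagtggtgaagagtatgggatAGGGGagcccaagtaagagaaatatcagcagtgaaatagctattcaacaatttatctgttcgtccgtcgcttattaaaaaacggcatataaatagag
PAU23 stood at 6.05, 6.61 and 7.70 CPM at 120 min, 31.2, 33.1 and 20.02 CPM at 180 min and 101, 136 and 136 CPM at 240 min (log2 4.18 ± 0.43, adjusted p = 2.7e-06). PAU2 went from 1.84, 0.747 and 0.436 CPM to 30.5, 22.8 and 15.1 CPM (log2 4.81 ± 0.84, adjusted p = 0.0015). PAU9 had no read in the 3 libraries of 120 min and 82, 63 and 77 reads at 240 min, which was at least 24.2-fold higher when each 120 min library is set at 3 counts. The 6 other members tested were not called and had changes of 0.68 to 4.71. Enough reads at 1 time alone let a gene be tested. PAU9, with a mean of 0.25 CPM at 180 min and 7.95 CPM at 240 min, was tested only through its 240 min libraries. The upward direction of this list therefore cannot be told apart from how its members came to be tested.

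Across the 500 bases before the start codon, TCGTTNAG was found in 11 of the 26 genes that rose and 1 of the 36 that fell with a window, against 5.10% of 5986 protein-coding genes. This motif was added after the values were seen. TCGTATA was found in 5 of 26 and 3 of 36 (7.0% of all), and ATTGTTC in 7 and 5 (11.8%). AGGGG was found in 5 of 26 and 22 of 36 (34.1%), and CACGTG in 0 and 5, which were PHO5, PHM6, SPL2, ARO9 and YHR033W (6.23%). For CCAAT the counts were 12 and 20 (62.5%), for TGACTC 3 and 5 (12.7%), for ACCAGC 4 and 3 (13.2%), for GCACCC 1 and 2 (7.62%), and the Hap1 motif was in none of either (0.35%).

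In the lists of growth genes the members moved by little but nearly all to the same side, and no member of the following lists was called. The 50 ribosome biogenesis genes all had changes below 0 (median -0.37), as did 134 of 138 cytosolic ribosomal protein genes (median -0.34) and the 10 histone genes (median -0.38). The 32 proteasome genes all had changes above 0 (median 0.17). In each course alone the list medians had these signs, from -0.29 to -0.46 for ribosome biogenesis and from 0.10 to 0.30 for the proteasome. Without course 1, 2 ribosome biogenesis, 10 ribosomal protein and 28 proteasome genes had changes above 0. Without course 2 or course 3 these counts were 0, 6 and 32. Of 28 general stress genes, YRO2, of a family of plasma membrane heat shock proteins, was called lower (log2 -2.34 ± 0.42, adjusted p = 0.0025), while PRB1, a vacuolar protease gene, had 0.96 ± 0.15 (adjusted p = 0.00063), under 2-fold. The median of that list was -0.17 but turned with the course, at 0.28, -0.19 and -0.56 in courses 1, 2 and 3, and was -0.35 without course 1 and -0.05 without course 3. Of 37 amino acid synthesis genes, ARO9, an aromatic aminotransferase gene, was called lower (log2 -1.50 ± 0.32, adjusted p = 0.0087), and 3 genes of branched-chain amino acid synthesis, LEU1, ILV5 and BAT1, had 0.98, 0.60 and 0.49 on the log2 scale with adjusted p of 0.00023, 0.011 and 0.03, under 2-fold. Altogether 25 of 43 lists, with 644 entries, had no called member and medians from -0.41 to 0.22 (some of them with members past the adjusted p but under 2-fold), among them glycolysis, ATP synthase, the TCA cycle, heme, iron and zinc. The remaining 33 called genes, 10 higher and 23 lower, belonged to no list. In 19 of the 43 lists the median changed sign in at least 1 course, among them the sphingolipid, fatty acid and other mannoprotein lists, whose medians lay near 0.

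**Figure D4:**
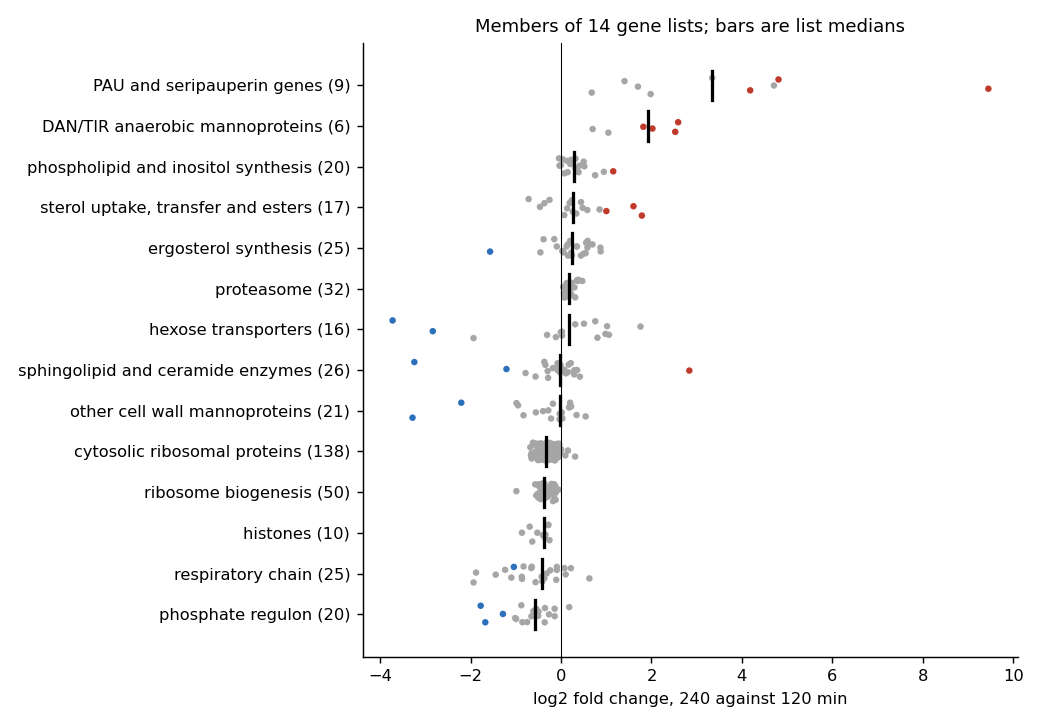
Log2 fold change from 120 to 240 min for the members of 14 gene lists, with the number tested in brackets. Each point is a gene, red where called higher, blue where called lower and grey where not called, and black bars are list medians. The DAN/TIR and PAU lists lie to the right of 0 and the phosphate list mostly to the left. A PAU gene could be tested through its 240 min reads alone, as PAU9 was.

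At 180 min most of the higher genes stood between their earlier and later levels. The 180 min level lay between those of 120 and 240 min in all 3 courses for 23 of the 26 higher genes and 17 of the 38 lower genes, against 334 (5.33%) of all genes tested. The called genes were chosen for a wide gap between 120 and 240 min, and a wide gap is more likely to hold the 180 min value. Most genes tested had a small gap, so the shares are not like for like and their difference was not tested. The median share of the log2 change that was done by 180 min was 0.53 (0.05 to 0.88) in the higher genes and 0.42 (0.04 to 0.82) in the lower genes. Of the shorter steps, 120 to 180 min had 6 called genes (0.0958%), 5 higher (0.0798%) and, for CWP2, 1 lower (0.016%). The higher genes were FHN1, PAU23, PBI1, TIR3 and TIR4. From 180 to 240 min 7 genes were called (0.112%). GSC2 and PAU23 were higher (0.0319%), and the 5 lower genes (0.0798%) were CWP2, NCE102, SPL2, YDR133C and YPC1. CWP2 and PAU23 were thus called in each step.

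Over the 8 times of the course, each of the 26 higher genes had its highest mean level at 240 min. Of the 38 lower genes, 35 had their lowest mean at 240 min, and the exceptions, HXT7, FMP48 and ICS2, were lowest at 0 min. Both sets were called for a wide gap between 240 min and an earlier time, which favours an extreme at 240 min. The share of all genes tested with their extreme at 240 min is not given here, so these counts were not tested against it. The lower genes had reached their highest mean at 0 min (6 genes), 5 min (12), 10 min (10), 30 min (9) or 60 min (1). FMP48, a mitochondrial kinase gene, had a mean of 4.08 CPM in air and 40.7 CPM at 30 min.

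**Figure D5:**
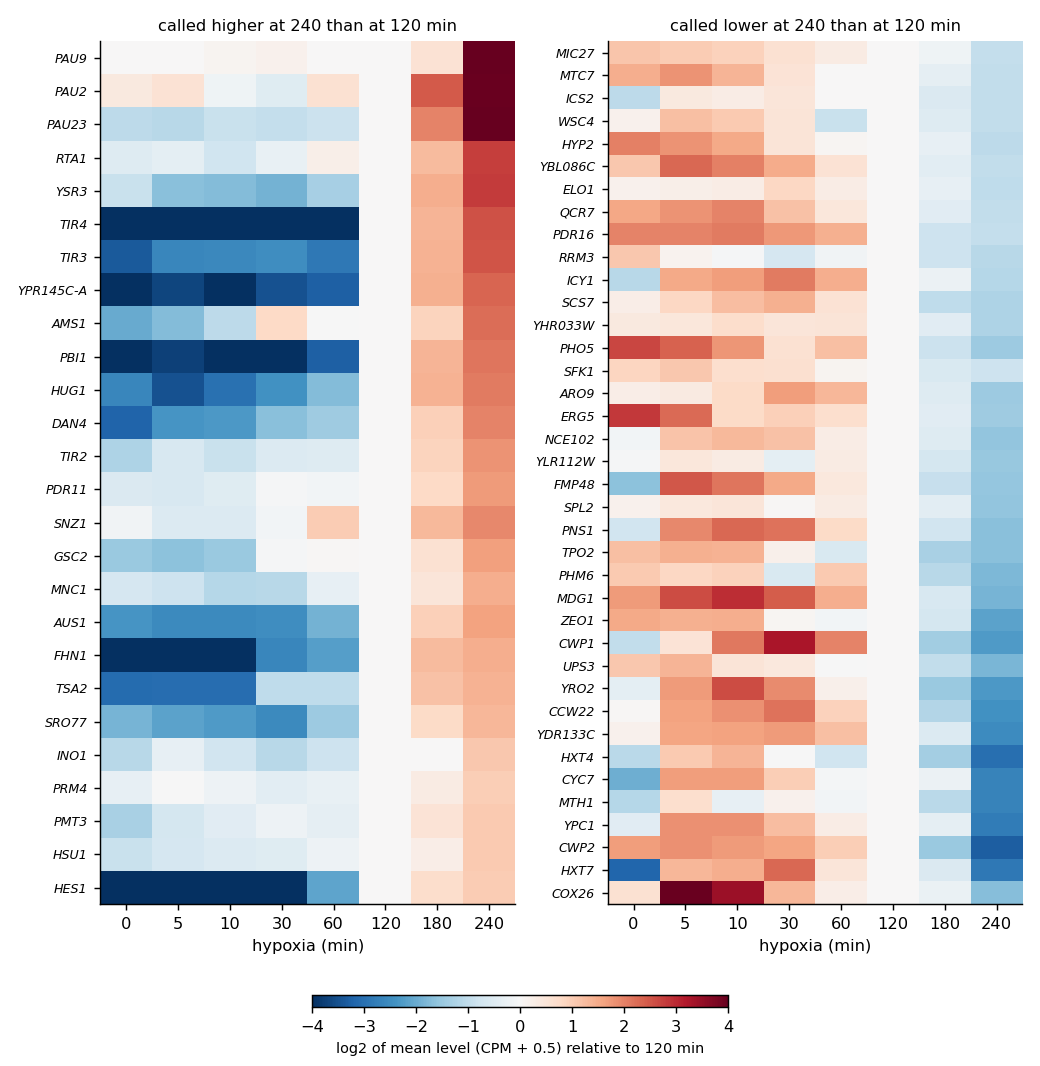
Mean level of the 64 called genes at 8 times, as log2 of CPM plus 0.5 relative to 120 min, which is white by construction. Red is above and blue below the 120 min level, with colours cut at 4 on the log2 scale. Genes called higher are darkest red at 240 min, and most genes called lower were above their 120 min level in the first 30 min.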

How the data were processed

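Each library is polyadenylated RNA prepared with the TruSeq kit. The authors mapped reads to R64 with TopHat2 and the deposited values are counts per feature made with HTSeq (versions not given in the sources used here). In courses 2 and 3 the files also list alignments that are not unique, 87.4 to 104 per 100 counted reads at the late times. Lines for unassigned reads were left out. Of 7140 features, 6048 matched the RefSeq R64 annotation, and 340 had no read.

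Counts of all 24 libraries were fitted with edgeR 4.0.16 in R 4.3.3 (TMM factors, filterByExpr, time as a factor, course as a block, 2-sided quasi-likelihood F-test), and p values were adjusted by Benjamini-Hochberg over 6262 genes. Calls needed an adjusted p below 0.05 and a change of 2-fold or more. SE is the size of the log2 change divided by the root of F. The pairing rests on the replicate numbers. Deviations from the means of 120 and 240 min correlated at 0.915, 0.753 and 0.755 within courses. Courses 2 and 3 correlated nearly as well with each other (0.706 and 0.719). These values set course 1 apart but cannot show that the numbers pair courses 2 and 3. The biological coefficient of variation was 0.196 with the block (14 residual degrees of freedom) and 0.59 without it. The fit was also run on counts simulated from its own means and spread with the same block. Such a run cannot check whether the effect of a course is the same at all times.

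The members and the 44 gene lists were chosen with earlier results of these data known. Named genes were the 15 largest rises and 15 largest falls, called members of each list (at most 6, or the largest change where none was called), the DAN/TIR genes, CWP1, CWP2, YPC1, PBI1 and the markers. Genes named outside this rule were chosen after their values were seen, as were the 6 promoters shown, the TCGTTNAG motif and the 100 bases left out before the start codon. The upstream sequence of 1 further gene is not reported here. Alternatives were DESeq2 1.42.0, no block, no PAU genes, no filter, scaling by totals or RLE factors, 6 or 9 libraries, no fold minimum and each course left out.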

Additional observations from a re-analysis of the deposited data

How the results depend on the processing

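None of the 64 called genes changed sign under an alternative that gave it a value. Of the 71 genes taken by the naming rule, 2 that were not called did, namely STL1 (-1.57 with the block and 0.15 without it) and LYS2 (-0.02 with all courses and 0.05 without course 1). Without the replicate block, 10 genes were called higher and 9 lower in place of 26 and 38, and the counts for 120 to 180 min and 180 to 240 min fell from 6 and 7 to 0 and 1. The edgeR count of 0 stood beside 155 of 6262 genes at an unadjusted p under 0.05. DESeq2 with the block called 13 genes in that step. Both 155 and, for 120 to 240 min without the block, 293 of 6262 lie below the 0.05 share expected where nothing changes. With the 120 and 240 min libraries alone 106 genes were called, 49 of them higher. With the 9 libraries from 120 min on 83 were called, 41 of them higher, and 24 and 26 were called in the shorter steps. DESeq2 called 76 genes from 120 to 240 min, and 13 and 22 in the shorter steps. Without the fold minimum, 76 genes were higher and 70 lower. Leaving out 1 course at a time gave 10 to 28 higher genes, 14 to 68 lower genes, 1 to 8 genes from 120 to 180 min and 0 to 15 from 180 to 240 min. The 0 came without course 2, where 423 of 6319 genes had an unadjusted p under 0.05 in edgeR. DESeq2 was not run on that subset. Leaving out course 1 raised the calls from 120 to 240 min from 64 to 96, while leaving out course 2 or 3 gave 24 or 40. Each fit without a course has fewer libraries, and the causes of the differences between fits were not tested. Calls kept in all 11 alternative fits were AMS1, AUS1, PBI1, TIR3 and TIR4 among the higher genes and CCW22, CWP2, MTH1 and NCE102 among the lower. Total-count scaling moved the median of all genes to 0.024. Genes with few reads at 240 min, such as COX26, HXT7 and YPC1, are limited by depth.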
